A study of Arabis alpina with 9 samples.

Results

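This account follows 7 cell wall genes of Arabis alpina, a perennial relative of Arabidopsis thaliana. They are 2 expansin genes, EXPA8 (Arabidopsis code AT2G40610, Arabis ID Aa_G144080) and EXPA16 (AT3G55500, Aa_G359120); 2 xyloglucan endotransglucosylase/hydrolase genes, XTH18 (AT4G30280, Aa_G156110) and TCH4 (AT5G57560, Aa_G575490); 2 laccase genes, LAC4 (AT2G38080, Aa_G150750) and LAC17 (AT5G60020, Aa_G33960); and CSLA01 (AT4G16590, Aa_G49250). They were found by their Arabidopsis codes in 6 deposited lists of genes that were higher or lower in the eop089 mutant than in its control, where they hold 8 entries. They are 7 of the 1487 listed gene IDs and of the 30538 gene IDs counted. Each of the 7 had 1 entry in the count table, and all passed the filter on low counts. EXPA16 reached that filter through the leaf and CSLA01 through the 3-week apex, so each had to differ between some groups.

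The plants were eop089 mutants of the Pajares accession in long days, and polyadenylated RNA was sequenced. There were 3 groups of 3 libraries, namely the dissected apex of 3-week and of 5-week plants and, at 5 weeks, the fifth and the sixth leaf. The labels give the mutant by its line name only, and do not say whether plants were pooled or came from separate batches. The control is known here only through the authors' fold changes.

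The growing plant cell wall is a network of cellulose held by xyloglucan and other hemicelluloses. Expansins loosen this network without cutting it, and XTH enzymes cut and rejoin xyloglucan chains, so that both are known from tissue that expands. Lignin stiffens walls that have stopped growing, chiefly in xylem and fibres, where laccases of the wall oxidise its building blocks. The CSLA family makes mannans, which are hemicelluloses.

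The libraries held between 11859813 and 13382460 counts in genes. Levels are given as CPM (counts in a library scaled to 1000000), which are not divided by gene length, so they are compared between groups and not between genes. Of 8 photosynthetic marker genes 2 have a name in the lists, CA1 and LHCB2.1, and both were far higher in the leaf. CA1 lay between 8475 and 8950 CPM in the leaf and between 0.322 and 32.4 CPM in the apices. None of 11 shoot meristem marker genes had a name in the lists, and the apex label was not checked by them. Of the 3 named epidermal and stomatal genes PDF1 had 1303, 714 and 15.6 mean CPM in apices of 3 weeks, apices of 5 weeks and leaves, in that order. In the same order TMM had 17.4, 9.39 and 3.64 mean CPM, and KAT1, at 2.72, 3.75 and 3.21 mean CPM, passed in no comparison (edgeR adjusted p of 0.132 to 0.422). In bulk tissue fewer cells of a type and less RNA per cell cannot be told apart, which holds for every level below.

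EXPA8 was much higher in the leaf than in either apex, and in the apex it fell with age. Its levels were 307, 312 and 278 CPM in the leaf libraries, 44.2, 44.2 and 38.3 CPM at the 3-week apex and 17.1, 17.5 and 16.6 CPM at the 5-week apex. The 3 groups did not overlap and the libraries of each lay close together. From the 3-week to the 5-week apex the log2 fold change was -1.30 (SE 0.08) and the adjusted p = 2e-08, from edgeR (quasi-likelihood F-test, Benjamini-Hochberg over all genes tested). The leaf was 17.5-fold above the 5-week apex (log2 4.13, SE 0.08; edgeR adjusted p = 4.35e-16). Against the 3-week apex the leaf was 7.08-fold higher (log2 2.82, SE 0.08; edgeR adjusted p = 8.18e-15).

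EXPA16, the other alpha-expansin gene, was found almost only in the leaf libraries, with 10 counts in all at the apex. Its leaf levels were 24.9, 20.2 and 25.2 CPM, resting on 641 counts over the group. At the 3-week apex replicates 1 and 3 had 5 counts each (0.326 and 0.333 CPM) and replicate 2 had 0. No 5-week apex library had a count, so that only a bound can be given for that group. Taking 3 counts over the group as its upper limit (counting error only), which is 0.0657 CPM, the leaf was at least 355.5-fold higher than the 5-week apex (edgeR adjusted p = 3.28e-11). Against the 3-week apex the leaf was 101-fold higher (log2 6.66, SE 0.32; edgeR adjusted p = 8.38e-11). Between the apex ages 10 counts at 3 weeks stood against 0 at 5 weeks (edgeR adjusted p = 0.0206). The same floor puts the pooled 3-week level at 3.38 times the 5-week limit, without the counting error of those 10 counts. That last call was lost without 3-week apex replicate 1 (adjusted p = 0.0627) or replicate 3 (adjusted p = 0.0675), and with limma and voom (adjusted p = 0.0652).

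**Figure D1:**
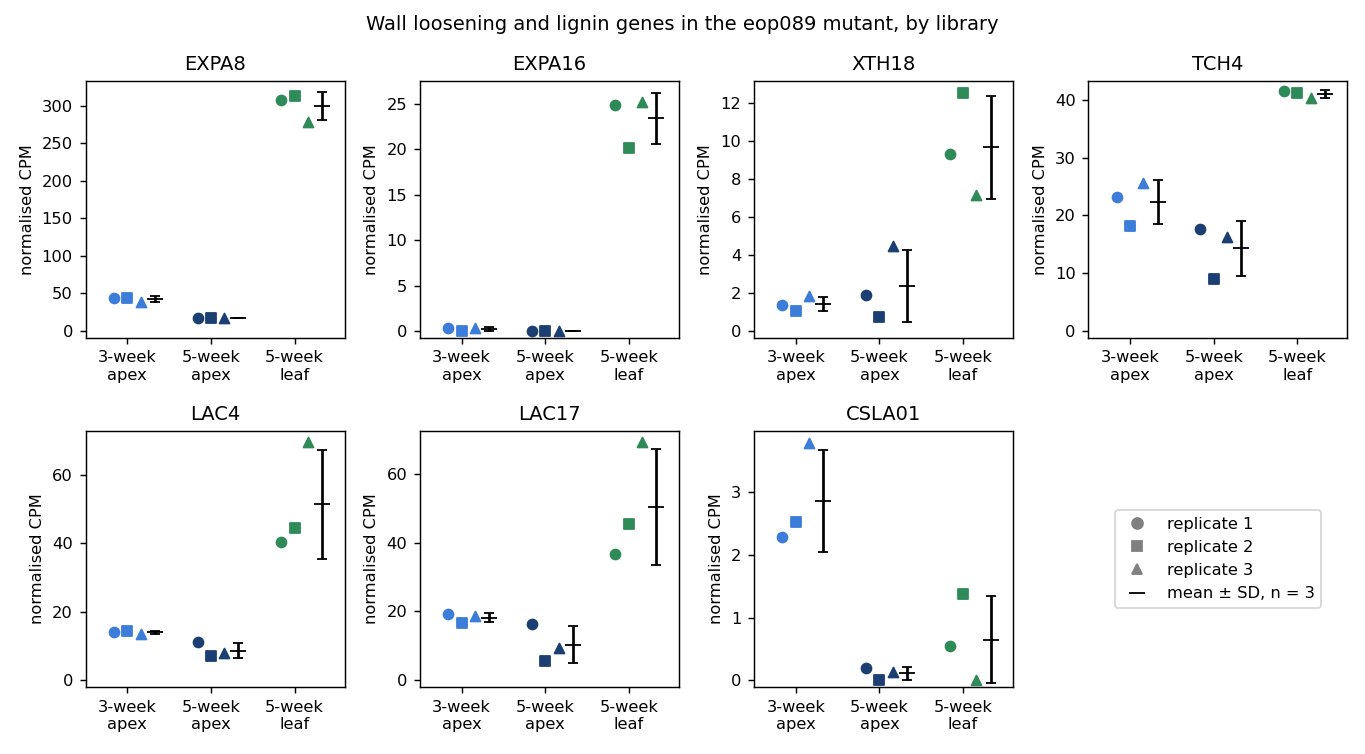
Normalised CPM of the 7 genes (vertical axes, linear and set for each gene) in the 3 groups of the mutant (horizontal axis); points are libraries, with a symbol for each replicate number, and bars are the mean ± SD of 3 libraries. In 6 of the panels the leaf is the highest group, while CSLA01 is highest at the 3-week apex with a mean of 2.86 CPM.

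XTH18 was also highest in the leaf, but its apex levels varied much more between libraries. The leaf libraries had 9.28, 12.5 and 7.14 CPM and the 3-week apex libraries 1.37, 1.02 and 1.80 CPM. At the 5-week apex the values were 1.87, 0.734 and 4.43 CPM, a spread that takes in all of the 3-week values. The leaf was higher than the 5-week apex by 2.04 on the log2 scale (SE 0.38; edgeR adjusted p = 0.000126) and higher than the 3-week apex by 2.78 (SE 0.41; edgeR adjusted p = 1.27e-05). Between the apex ages the log2 fold change of 0.74 (SE 0.47) did not pass (edgeR adjusted p = 0.222). That value depended on single libraries of the 5-week apex, being -0.094 without replicate 3 (adjusted p = 0.886) and 1.16 without replicate 2 (adjusted p = 0.0287). Without replicate 3 the mean of the group moved from 2.34 to 1.30 CPM, and the difference of leaf and 5-week apex to 2.87.

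TCH4, also called XTH22 and known in Arabidopsis for its rapid induction by touch, had nearly the same level in every leaf library. The leaf values were 41.5, 41.2 and 40.3 CPM, against 23.2, 18.2 and 25.6 CPM at the 3-week apex and 17.7, 8.87 and 16.2 CPM at the 5-week apex. The groups did not overlap, although 3-week replicate 2 and 5-week replicate 1 lay within 1 CPM of each other. TCH4 was higher in the leaf than at the 5-week apex by 1.52 on the log2 scale (SE 0.18; edgeR adjusted p = 6.13e-07), the smallest such difference of the 7 genes. Against the 3-week apex it was higher by 0.88 (SE 0.17; edgeR adjusted p = 0.000181). This call was lost with scaling by library totals only (log2 0.15, adjusted p = 0.405), a scaling that moved the median of all genes in this comparison to -0.76. With age TCH4 fell in the apex by 0.65 on the log2 scale (SE 0.18; edgeR adjusted p = 0.00872), and without 3-week replicate 3 the adjusted p was 0.0516.

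The laccase genes LAC4 and LAC17, which act together in the lignification of Arabidopsis stems, had the same order of groups. LAC4 stood at 40.2, 44.3 and 69.7 CPM in leaf replicates 1, 2 and 3, and LAC17 at 36.6, 45.3 and 69.3 CPM. Replicate 3 was the highest leaf library for both. At the 3-week apex LAC4 had 14.0, 14.4 and 13.5 CPM and LAC17 had 19.2, 16.7 and 18.6 CPM. At the 5-week apex LAC4 had 11.1, 6.94 and 7.86 CPM and LAC17 had 16.3, 5.47 and 9.38 CPM. There replicate 1 was the highest and replicate 2 the lowest for both genes, and no value reached those of the 3-week apex.

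Both laccase genes were higher in the leaf than at the 5-week apex, LAC4 by 2.57 on the log2 scale (SE 0.19; edgeR adjusted p = 2.05e-09) and LAC17 by 2.27 (SE 0.27; edgeR adjusted p = 7.07e-07). The leaf also exceeded the 3-week apex, by 1.88 (SE 0.18; edgeR adjusted p = 6.2e-08) for LAC4 and 1.47 (SE 0.25; edgeR adjusted p = 5.19e-05) for LAC17. Their fall from the 3-week to the 5-week apex was smaller and less certain. LAC4 fell by 0.69 on the log2 scale (SE 0.20; edgeR adjusted p = 0.0136), a call lost without 5-week replicate 2 (adjusted p = 0.0655) or replicate 3 (adjusted p = 0.0527). LAC17 fell by 0.80 (SE 0.28; edgeR adjusted p = 0.0308), but the call was lost in DESeq2 (adjusted p = 0.119), with scaling by total counts (adjusted p = 0.0501) and without any 1 of 5 apex libraries. These were all 3 of the 3-week apex (adjusted p = 0.0818, 0.0507 and 0.0764 without replicates 1, 2 and 3) and 5-week replicates 2 and 3 (0.13 and 0.095). Without 5-week replicate 2 the log2 fold change was -0.50.

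CSLA01, annotated in the deposited lists by its likeness to cellulose synthase, was the only one of the 7 genes with its highest level at the 3-week apex. The 3-week libraries had 2.28, 2.52 and 3.79 CPM, or 129 counts in all. At the 5-week apex the values were 0.193, 0 and 0.132 CPM, or 5 counts in all, and in the leaf 0.552, 1.38 and 0 CPM, or 18 counts. No library of the other groups reached the 3-week apex, whereas the 5-week apex and the leaf overlapped. From 3 to 5 weeks CSLA01 fell by 4.59 on the log2 scale (SE 0.67; edgeR adjusted p = 6.83e-05), and the leaf was lower than the 3-week apex by a log2 ratio of -2.11 (SE 0.54; edgeR adjusted p = 0.0022). The leaf stood above the 5-week apex by 2.48 (SE 0.95; edgeR adjusted p = 0.0248), a call that rested on few counts. That call was lost without leaf replicate 2 (log2 1.27, adjusted p = 0.332), without 5-week apex replicate 2 (adjusted p = 0.0752), with limma and voom (adjusted p = 0.159) and with scaling by total counts (adjusted p = 0.113). Without leaf replicate 2 the leaf mean moved from 0.644 to 0.276 CPM, and the log2 fold change of leaf against 3-week apex to -3.33. Without 5-week apex replicate 1 the change with age was -5.24 and the difference of leaf and 5-week apex 3.12 on the log2 scale, both still called.

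**Figure D2:**
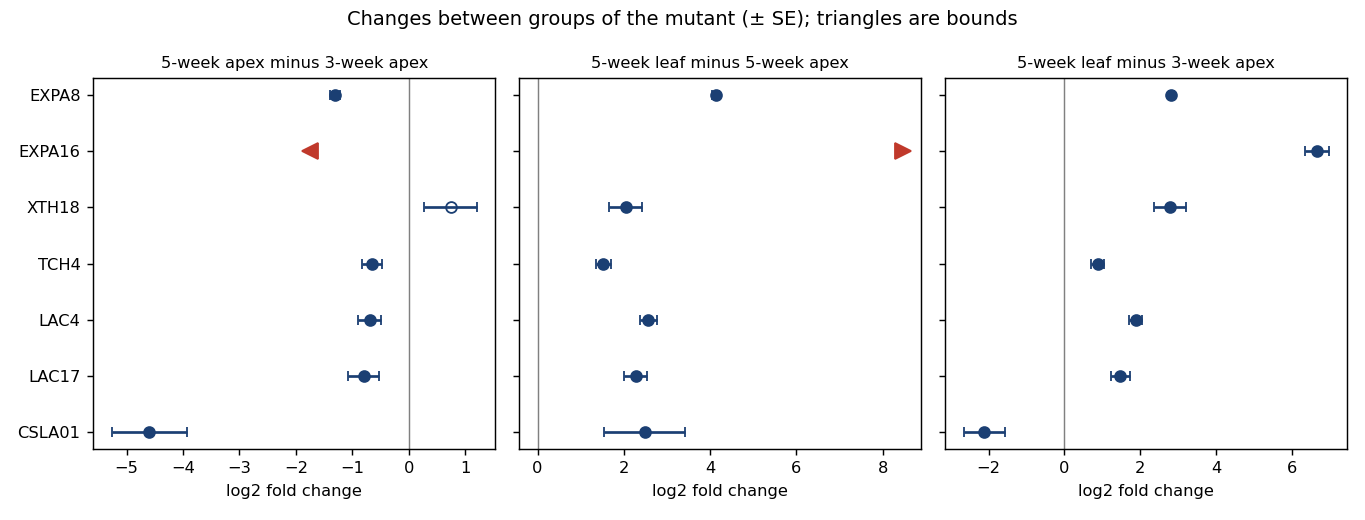
Log2 fold changes (horizontal axes, one panel for each pair of groups) of the 7 genes, with bars of ± 1 SE; the open symbol did not pass an adjusted p of 0.05, and the triangles of EXPA16 are bounds against 3 counts. In the first panel every filled symbol lies below 0, and in the second all lie above 0, from 1.52 for TCH4 to the bound for EXPA16.

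Set beside all genes, the counts of calls read as follows. From the 3-week to the 5-week apex 6 of the 7 genes fell and none rose, where 40.1% of the 20633 genes tested were called and 21.0% were called lower. The falls of EXPA16, TCH4, LAC4 and LAC17 were each lost under some alternative, as given above. The median log2 fold change of the 7 was -0.80, against 0.01 over all genes tested. In the leaf all 7 were higher than at the 5-week apex, where 79.1% of all genes were called and 37.1% were called higher. Their median log2 fold change was 2.48, with EXPA16 at its bound, against -0.10 over all genes. Against the 3-week apex 6 were higher in the leaf and CSLA01 lower, where 74.9% of all genes were called and 36.6% were called higher. The 7 include CSLA01, which passed the filter through the 3-week apex, and EXPA16, which did so through the leaf. These tallies and medians are thus in part fixed by the choice of genes.

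The listings tie some of these comparisons to the choice of the genes. EXPA8, EXPA16, LAC4 and LAC17 entered by being higher, and TCH4 and XTH18 by being lower, in the same mutant leaf libraries than in the control leaf, and CSLA01 by being higher at the 3-week apex. Of the comparisons above, that between the apex ages sets no leaf level against another, but it uses the 3-week apex level by which CSLA01 was listed. That of leaf and 5-week apex sets none of the 3-week apex. It uses the leaf levels by which all of the genes but CSLA01 were listed, and for these it is tied to the listing. The comparison of leaf and 3-week apex is tied to the listing for every gene. It uses those leaf levels and also the 3-week apex level by which CSLA01 was listed as higher. All libraries entered the shared estimate of spread as well, so the other tests are not wholly separate from the listings either. Fitted with the apex groups alone, EXPA8, TCH4, LAC4 and LAC17 were still called between the ages, LAC4 with an edgeR adjusted p = 0.00284 and LAC17 with 0.021. EXPA16 between the ages and CSLA01 between leaf and 5-week apex could not be fitted in this way, since the filter on low counts removed them. XTH18 was also listed, as higher, at the 5-week apex, so both the apex age comparison and that of leaf and 5-week apex use a level by which it was chosen.

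The order of the groups in the mutant was thus leaf, 3-week apex and 5-week apex for EXPA8, EXPA16, TCH4, LAC4 and LAC17. Neighbouring groups in that order differed past the threshold for each of the 5, except where a library was left out or the scaling or tool was changed, as given for EXPA16, TCH4, LAC4 and LAC17 above. For XTH18 the leaf came first and the apex ages were not told apart. For CSLA01 the order was 3-week apex, leaf and 5-week apex, of which the last 2 overlapped.

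Of the 2 named photosynthetic marker genes CA1 alone changed past the threshold between the apex groups. CA1 fell from 32.4, 4.90 and 13.6 CPM at the 3-week apex to 0.322, 0.334 and 0.991 CPM at the 5-week apex (log2 -4.93, SE 0.67; edgeR adjusted p = 3.28e-05). LHCB2.1 did not pass, with 268, 236 and 189 CPM at 3 weeks and 136, 423 and 322 CPM at 5 weeks (edgeR adjusted p = 0.307). Both have a name only through a listing in the groups compared. The authors' deposited table has CA1 at 2.44-fold at the 3-week apex and LHCB2.1 at 0.492 times the control level at the 5-week apex. The fall of CA1 is thus tied to its listing. The part that leaf-type RNA in the apex libraries may have in the fall of the leaf-high wall genes was not tested. The 5-week apex replicate 2, the lowest library of its group for XTH18, TCH4, LAC4 and LAC17, had the fewest counts of all libraries. It also had the largest share of reads outside annotated genes, 16.3% against 13.9% and 14.6% in replicates 1 and 3. Whether these values bear on its low wall gene levels was not tested.

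**Figure D3:**
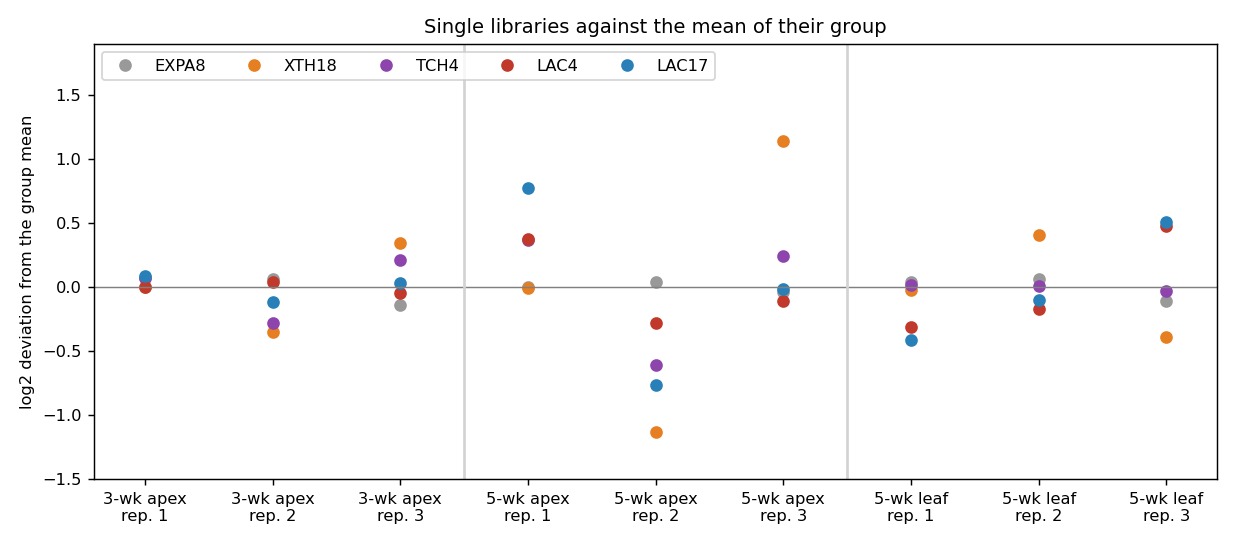
Deviation of each library from the mean of its group (vertical axis, log2 CPM with a prior of 3 counts) for 5 of the genes, by library (horizontal axis). At the 5-week apex replicate 2 lies lowest for XTH18, TCH4, LAC4 and LAC17, and leaf replicate 3 lies highest for LAC4 and LAC17, at 0.48 and 0.51.

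The 2 laccase genes ranked the libraries alike in the leaf and at the 5-week apex but not at the 3-week apex, where replicate 2 was the highest for LAC4 and the lowest for LAC17. The ratio of LAC17 to LAC4 counts lay between 0.909 and 1.02 in the leaf, between 1.16 and 1.38 at the 3-week apex and between 0.788 and 1.47 at the 5-week apex. Over the 9 libraries the deviations of LAC4 and LAC17 from their group means had a Pearson correlation of 0.903, and those of XTH18 and TCH4 one of 0.777. The expansin pair EXPA8 and EXPA16 had one of -0.468. Of pairs across families, EXPA8 and LAC4 had one of -0.424 and TCH4 and LAC17 one of 0.724. These are descriptions over 9 libraries, which share depth and RNA preparation, and the 3 deviations of a group sum to 0.

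Leaf replicate 3, in which both laccase genes were 1.65 and 1.69 times the mean of the other leaf libraries, also stood apart for genes outside the 7. PDF1 had 39.2 CPM there against 4.64 and 2.87 CPM in leaf replicates 1 and 2. XTH24, an enzyme gene of the XTH family, had 43.0 CPM against 102 and 92.3 CPM. Of 9 epidermal and stomatal marker genes 3 had a name in the lists, and their summed level ran from 8.07 to 48.0 CPM over the leaf libraries. The part of these differences in the laccase values was not tested. Without replicate 3 the leaf means of LAC4 and LAC17 moved from 51.4 to 42.2 and from 50.4 to 41.0 CPM.

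In the comparison with the control, the expansin and laccase genes were higher in the mutant leaf and the XTH genes lower. The authors' deposited table gives EXPA8 as 2.87-fold higher (adjusted p = 2.05e-13, mutant mean of 2747.13 normalized counts) and EXPA16 as 2.09-fold higher (adjusted p = 0.000388, mutant mean 215.04). For LAC4 and LAC17 the authors' deposited table has changes of 2.03- and 2-fold, with adjusted p = 5.52e-05 and 8.87e-05, so that LAC17 sat at the lower limit of the lists. By the authors' deposited table TCH4 was at 0.327 times the control level and XTH18 at 0.238 times, with adjusted p = 1.11e-13 and 3.98e-16. The lists of genes higher and lower in the mutant leaf hold 1.30% and 2.62% of all counted gene IDs, and nothing is read from the members' count there, since listing chose them.

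At the apex only CSLA01 and XTH18 were listed. The authors' deposited table puts CSLA01 at 10.87-fold higher at the 3-week apex (adjusted p = 5.95e-10, mutant mean 42.2), in a list that holds 0.792% of the counted IDs. By the authors' deposited table XTH18 was 3-fold higher at the 5-week apex (adjusted p = 0.0478, mutant mean 31.76), in a list with 0.216% of the IDs, so that its direction there was opposite to that in the leaf. Whether the change of XTH18 differed between apex and leaf was not tested. Its 5-week apex libraries had 29, 11 and 67 counts, and without replicate 3 their mean moved from 35.7 to 20 counts. The XTH18 entry at the apex was also the only one of the 8 to leave the lists when the authors' adjusted p was held at 0.01.

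For TCH4 and XTH18 a low level in the mutant leaf relative to the control did not go with a low level relative to the mutant apex. Both were lower in the mutant leaf than in its control in the authors' deposited table, but had their highest mutant levels in the leaf. The 2 comparisons use the same mutant leaf libraries. Expansins and XTHs are multigene families, and the sources used here do not say how reads matching several copies were counted.

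The other expansin genes of the lists went mostly the same way as EXPA8 and EXPA16. Of 34 expansin codes 9 were listed, all in the leaf. Of these 8, EXPA8 and EXPA16 among them, were higher in the mutant, and EXLA2, an expansin-like gene, was lower. The lists of genes higher and lower in the mutant leaf hold 1.30% and 2.62% of all counted gene IDs. Beside the 2 followed here, the authors' deposited table has EXPA20, EXPB1 and EXPA11 at 3.59-, 3.51- and 3.47-fold, and EXPA3, EXPA1 and EXPA10 at 2.66-, 2.57- and 2.37-fold. EXLA2 was at 0.426 times the control level by the authors' deposited table. Genes outside the lists carry no name in the files used here, so the other codes of each family were not analysed.

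The XTH genes of the lists were split. Of 33 XTH codes 7 were listed, and in the leaf 2 of them were higher and 4 lower in the mutant. Over all genes the leaf lists hold 397 IDs as higher and 801 as lower, or 1.30% and 2.62% of the counted IDs. The larger part was thus lower there too, and the split is not read as a trait of the XTH genes. The authors' deposited table has XTH28 and XTH30 at 3.04- and 2.08-fold, while XTH33 and XTH24 were at 0.336 and 0.343 times the control level, close to TCH4 at 0.327 times. At the 5-week apex the authors' deposited table has XTH15 at 0.428 times the control level, in a list that holds 0.164% of the counted IDs.

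**Figure D4:**
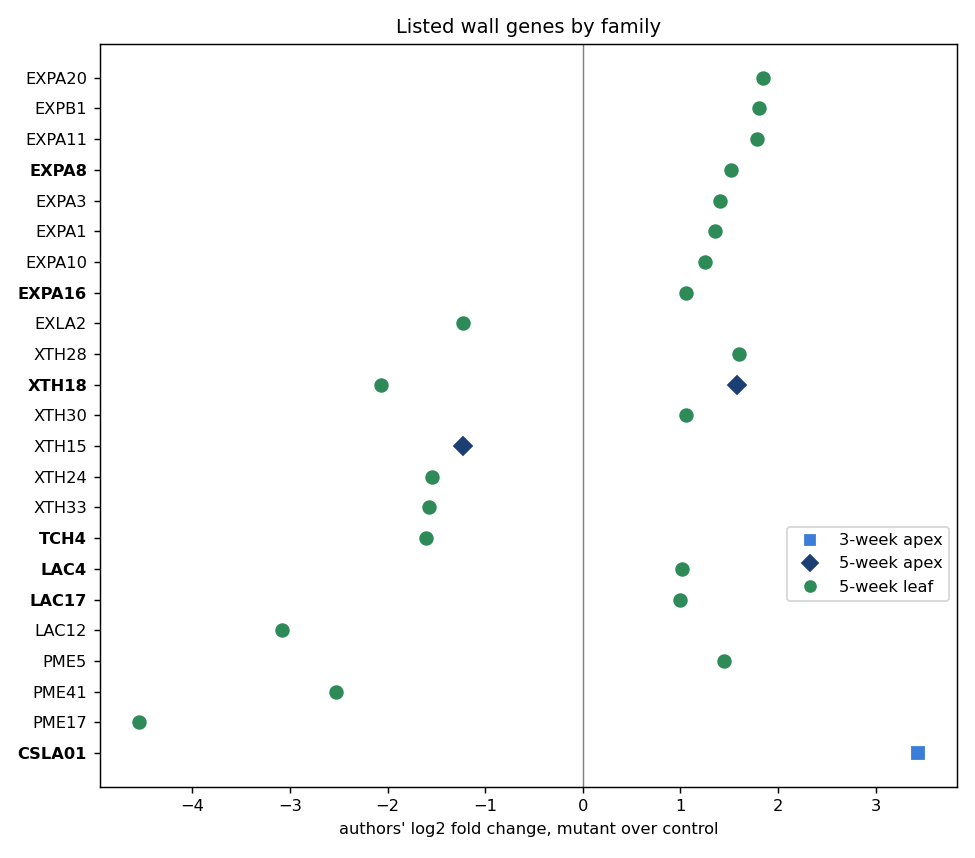
The authors' log2 fold change of mutant over control (horizontal axis) for 23 listed genes of the expansin, XTH, laccase, pectin and CSLA families (vertical axis, the 7 genes in bold); the symbol gives the setting. All expansin genes except EXLA2 lie to the right of 0, and TCH4, XTH24, XTH33 and the leaf value of XTH18 lie between -2.07 and -1.54.

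Of 17 laccase codes 3 were listed, LAC4 and LAC17 higher and LAC12 lower, the last, by the authors' deposited table, at 0.118 times the control level and a mutant mean of 3.31. None of 19 codes for the synthesis of lignin monomers was listed. Of 32 secondary wall and xylem codes 3 were listed, LAC4, LAC17 and the peroxidase gene PRX64. The authors' deposited table has PRX64 at 0.143 times the control level and a mutant mean of 5.68, and it was not tested here for its low counts. The summed level of these 3 ran from 78.0 to 139 CPM in the leaf, from 31.1 to 33.3 CPM at the 3-week apex and from 12.6 to 27.6 CPM at the 5-week apex. It rests almost wholly on the laccase genes, as PRX64 had at most 1.22 CPM in a leaf library. The other xylem markers have no name here, so the amount of xylem in a library was not measured apart from the laccases.

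Of 19 cellulose and mannan synthase codes CSLA01 was the only one listed. Of 13 codes for pectin modification 3 were listed, all pectin methylesterase genes in the leaf. The authors' deposited table has PME5 at 2.74-fold, PME41 at 0.173 times and PME17 at 0.0427 times the control level, the last with a mutant mean of only 15.07. The touch and heat shock codes numbered 7, of which TCH4 and the heat shock gene HSP90.1 were listed, both lower in the leaf. The heat shock gene was at 0.392 times the control level by the authors' deposited table (adjusted p = 0.014), with a mutant mean of only 18.71. Whether handling of the plants had a part in the TCH4 value was not tested.

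Across the groups of the mutant the listed expansin genes divided into those higher in the leaf than at the 5-week apex and those lower. Of the 8 expansin genes with a single count entry, 5 were higher and 3 lower in the leaf than at the 5-week apex. Their median log2 fold change was 1.25 against -0.10 over all genes, of which 79.1% were called and 37.1% were called higher. The 8 include EXPA8 and EXPA16, and all but EXLA2 were listed as higher in these leaf libraries, so this tally is tied to the listing. Beside EXPA8 and EXPA16, EXPA11, EXLA2 and EXPA10 were higher (log2 3.67, 1.39 and 1.11). EXPA20, EXPA3 and EXPB1 were lower (log2 -3.88, -1.58 and -1.04). EXPA11 rose from 0.918 ± 0.429 to 11.8 ± 1.12 CPM (SD, n = 3 each; log2 3.67, SE 0.24; edgeR adjusted p = 4.94e-10). EXPA20 was at 47.3 ± 2.62 CPM at the 5-week apex and 3.21 ± 0.595 CPM in the leaf (SD, n = 3 each; log2 -3.88, SE 0.12; edgeR adjusted p = 2.66e-14). EXPA3 stood at 129.5 ± 5.94 and 43.4 ± 2.83 CPM in the same groups (SD, n = 3 each). So EXPA20, EXPA3 and EXPB1 were listed higher in the mutant leaf although the mutant had more of them in the apex.

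With age 6 of these 8 expansin genes, EXPA8 and EXPA16 among them, fell in the apex and 2 rose. Their median log2 fold change, with EXPA16 at its bound, was -1.04 against 0.01 over all genes. Of all genes 40.1% were called and 21.0% were called lower. EXPA10 fell from 38.9 ± 5.18 to 15.6 ± 1.52 CPM (SD, n = 3 each; log2 -1.32, SE 0.10; edgeR adjusted p = 1.59e-07), a change close to the -1.30 of EXPA8. EXPA11 fell by 2.42 on the log2 scale (SE 0.26; edgeR adjusted p = 3.25e-06). EXPA20 rose by 0.52 (SE 0.08; edgeR adjusted p = 9.64e-05) and EXPB1, a beta-expansin gene, by 0.49 (SE 0.14; edgeR adjusted p = 0.00945).

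The 4 XTH genes listed lower in the mutant leaf all had their highest mutant level there. XTH33 rose from between 0.601 and 1.55 CPM at the 5-week apex to between 22.7 and 30.1 CPM in the leaf (log2 4.76, SE 0.25; edgeR adjusted p = 1.93e-11). XTH24 stood at 7.26 ± 2.76 and 79.0 ± 31.5 CPM (SD, n = 3 each) in these groups. Of the 2 listed higher in the leaf, XTH30 was also a leaf gene, at 65.8 ± 6.05 CPM against 2.36 ± 0.630 CPM at the 5-week apex (SD, n = 3 each; log2 4.79, SE 0.16; edgeR adjusted p = 5.31e-14). XTH28 was at 28.2 ± 3.16 CPM in that apex and 8.37 ± 0.972 CPM in the leaf (SD, n = 3 each; log2 -1.75, SE 0.12; edgeR adjusted p = 6.23e-10). Over the 7 listed XTH genes, XTH18 and TCH4 among them, 5 were higher and 2 lower in the leaf than at the 5-week apex. Their median log2 fold change was 2.04 against -0.10 over all genes, 37.1% of which were called higher. Between the apex ages 1 of the 7 rose and 4 fell, with a median of -0.65 against 0.01 over all genes, 21.0% of which were called lower. All of the 7 but XTH15 were listed by these leaf libraries, and XTH15 and XTH18 by those of the 5-week apex. Both tallies are thus tied to the listing, that between the apex ages through XTH15 and XTH18. PME5, an apex gene like EXPA3, stood at 88.8 ± 8.54 CPM at the 5-week apex and 17.4 ± 6.82 CPM in the leaf (SD, n = 3 each; log2 -2.35, SE 0.17; edgeR adjusted p = 1.38e-09).

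**Figure D5:**
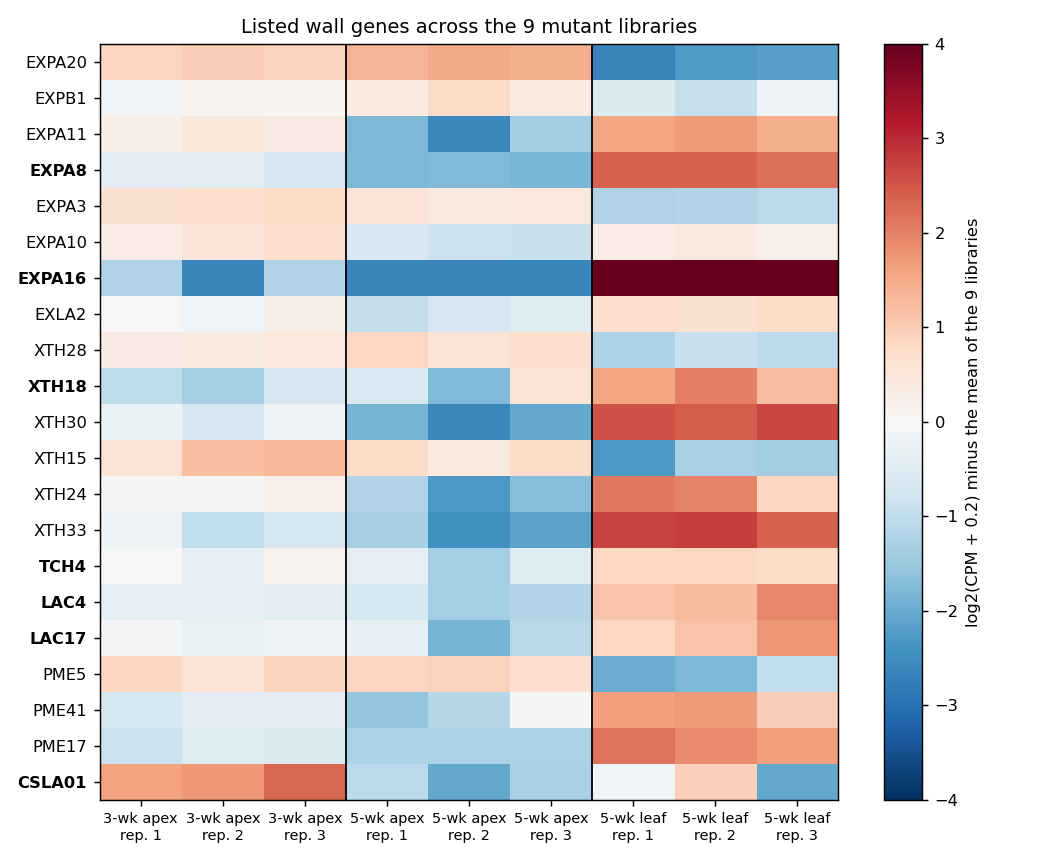
Level of 21 listed wall genes (rows, the 7 genes in bold) in the 9 mutant libraries (columns), as log2(CPM + 0.2) minus the mean over the libraries; colours stop at 4 in either direction. EXPA8, EXPA16, XTH30, XTH33 and XTH24 are highest in the leaf, and EXPA20, EXPA3, EXPB1, XTH28, XTH15 and PME5 are lowest there.

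Among 713 named genes with an average log2 CPM of at least 2, those with the pattern most like each gene over the 9 libraries were as follows, by Pearson correlation of log2 CPM. For EXPA8 they were the glycine decarboxylase gene GLDP2 (0.998) and OFP16 (0.997), and for EXPA16 AT3G23880 (0.996) and the ethylene synthesis gene ACS4 (0.995). XTH18 was most like the phosphatidic acid phosphatase gene of code AT2G01180 (0.985) and XBAT34 (0.983), both of which are, as XTH18 is, in the list of genes lower in the mutant leaf. TCH4 was most like the fasciclin-like arabinogalactan protein gene FLA13 (0.979) and RbcX1 (0.971). For LAC4 the genes were AT3G19620 (0.993) and AT2G19970 (0.991), and for LAC17 AT2G19970 (0.968) and LAC4 (0.967). CSLA01 had the weakest likeness, to GNTL (0.936) and NSP1 (0.894). A like pattern did not always go with a like listing. GLDP2 was listed lower and FLA13 higher in the mutant leaf, opposite to EXPA8 and TCH4. AT3G23880, RbcX1 and NSP1 were listed in an apex group where the gene they resembled was not. OFP16, ACS4, GNTL and the genes named for LAC4 and LAC17 shared a listing with the gene they resembled. These values are descriptions over 9 libraries in 3 groups. The correlations of the deviations from the group means ran from 0.00138 for GLDP2 with EXPA8 to 0.934 for the phosphatase gene with XTH18.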

How the data were processed

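RNA from 9 mutant libraries was analysed. Integer read counts per gene were deposited by the authors, with 34220 gene entries. STAR, HTSeq 0.5.4p1, DESeq and DESeq2 are listed, without roles, in the submitters' processing notes. The sources used here give no genome build. Reads outside annotated genes were 7.94% to 16.3% and ambiguous reads 2.78% to 3.37% of a library, and stayed out of the totals. The 6 deposited lists give the authors' mutant mean signal, in normalized counts, the fold change as a ratio of mutant to control, its log2 value and an adjusted p-value made by the authors. Control means (6 columns) were left aside. Deposited mutant means of the 7 genes were 0.890 to 1.01 times the mean raw count of the same libraries.

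The count test was that of edgeR 4.0.16, run in R 4.3.3 (TMM scaling, expression filter, quasi-likelihood F-test, 1 model with 3 groups), with Benjamini-Hochberg adjustment over 20633 genes at 0.05. The procedure was tested on simulated data. Far fewer genes changed there than were called here, so that test does not cover the scaling where so many genes change. An SE is the size of the log2 fold change divided by the root of F. CPM use TMM-scaled library sizes. Alternatives used DESeq2 1.42.0, limma 3.58.1 with voom, other scalings and filters, a replicate block and leaving out each library. Tables were made with pandas 2.3.3 and numpy 2.4.6, and figures with matplotlib 3.10.9, in Python 3.11.15.

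The genes and lists were chosen with earlier results of these data known. Named were the 7 genes, genes of fixed wall and marker lists that have an entry in a deposited list (test values for up to 10 by their largest F; EXPB1, XTH24, EXLA2, XTH15, PME41, PME17, PRX64, LAC12, HSP90.1, PDF1, TMM and KAT1 were added after their values were seen), and per gene the 2 most alike. EXPA1 has more than 1 count entry and was left out of count tests. Nothing in the labels says that replicates were separate plants, so p-values cover the spread between these samples alone, and it may be technical.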

Additional observations from a re-analysis of the deposited data

How the results depend on the processing

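Of the 21 results made of 1 of the 7 genes in 1 of the 3 comparisons, 14 kept direction and side of the threshold under every alternative run. The other 7 are the apex age results of EXPA16, XTH18, TCH4, LAC4 and LAC17, the TCH4 result of leaf against 3-week apex, and the CSLA01 result of leaf against 5-week apex. Over 355 alternative values 335 kept the call, 18 lost it, 1 gained it and 1 reversed. The last 2 were both XTH18 between the apex ages, whose log2 fold change ran from -0.094 without 5-week apex replicate 3 to 1.16 without replicate 2. EXPA16 between the apex ages and CSLA01 between leaf and 5-week apex could not be fitted with only the 2 groups compared, since the filter removed them. The cause of these changes was not tested, apart from fewer samples where a library is left out.

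Over all genes, the counts of calls stayed within 1.5 times the main count under every alternative. Scaling by total counts alone moved the median of all genes, on the log2 scale, to 0.12 between the apex ages, to -0.93 for leaf against 5-week apex and to -0.76 for leaf against 3-week apex. The share of calls that were higher moved with it from 47.6% to 66.2%, from 46.9% to 22% and from 48.9% to 22.8%, and to 37.2% in DESeq2 between the apex ages. The replicate numbers showed no pairing of the libraries. Same-numbered libraries of different groups had correlations of their deviations between -0.0771 and 0.00757, and other-numbered ones between -0.0583 and 0.068. With 3 libraries a group these values cannot tell whether same-numbered libraries shared a batch. With the replicate number as a block 7681, 16114 and 15242 genes were called in the 3 comparisons, against 8265, 16316 and 15451, and no call of the 7 genes changed. Of the 8 list entries 7 had an authors' adjusted p of at most 0.01. Depth limits EXPA16 in the apex and CSLA01 outside the 3-week apex, where groups held 0 to 18 counts.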

Other observations

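Among wall genes of the lists that lie outside the families above, chosen by name after their values were seen, proteins of the wall matrix were listed in both directions in the mutant leaf. FLA13, AGP26 and CC3, a companion of cellulose synthase, were 2.36-, 2.65- and 2.69-fold higher by the authors' deposited table. The authors' deposited table has the arabinogalactan protein genes AGP18 and AGP5 at 0.486 and 0.419 times the control level, the extensin-domain gene LRX3 at 0.492 times and the pectin acetylesterase gene PAE9 at 0.408 times. It has the peroxidase genes PRX71 and PRX25 at 0.224 and 0.288 times and the pectin methylesterase gene PME12 at 0.448 times that level, again from the authors' deposited table. PRX52, a peroxidase gene, was the only one of these listed elsewhere, at 2.11-fold higher at the 3-week apex by the authors' deposited table.

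In the mutant groups FLA13 followed the same order as EXPA8, with 80.3 ± 16.4 CPM in the leaf, 8.95 ± 2.84 CPM at the 3-week apex and 1.33 ± 1.04 CPM at the 5-week apex (SD, n = 3 each). From 3 to 5 weeks it fell in the apex by 2.74 on the log2 scale (SE 0.39; edgeR adjusted p = 4.84e-05). LRX3 stood at 137 ± 4.68 CPM in the leaf and 29.8 ± 4.30 CPM at the 5-week apex (SD, n = 3 each), which is 4.59-fold higher by edgeR (adjusted p = 6.93e-13). Like TCH4 and XTH18, it was thus listed lower in the mutant leaf while the mutant level was highest there. AGP18, PAE9, PRX71, PRX25 and PME12, also listed lower, had their highest mean in the leaf too. AGP5, listed lower as well, had its lowest mean there. It stood at 12.4 ± 0.676 CPM in the leaf and 18.4 ± 0.720 CPM at the 5-week apex (SD, n = 3 each; log2 -0.57, SE 0.10; edgeR adjusted p = 5.88e-05). Against the 3-week apex the leaf level of AGP5 did not pass (edgeR adjusted p = 0.123). AGP26 rose in the apex with age from 9.58 ± 0.952 to 14.9 ± 0.242 CPM (SD, n = 3 each; log2 0.64, SE 0.13; edgeR adjusted p = 0.000937), against the direction of 6 of the 7 genes.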
